A study of Mus musculus with 3 samples.

Results

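A set of 10 genes that encode chemokines of the vessel wall were followed across mouse aortic endothelial cells (MAECs), the cells that line the aorta: Cxcl1, Cxcl2, Cxcl10, Cxcl12, Cxcl16, Cx3cl1, Ccl2, Ccl5, Ccl7 and Ccl20. They were taken by gene symbol from the deposited tables, where all 10 were found among 18287 listed genes. The cells and their medium were purchased, and each of 3 groups was 1 library of polyadenylated RNA. The control group is labelled as control cells, and its label names no treatment or vehicle. The glucose oxidase group was given that enzyme, which makes hydrogen peroxide from glucose, for 30 min at 5 mU/mL. In the remaining group, called the combined treatment below, the cells had the same glucose oxidase exposure together with ethyl-2-hydroxybenzylamine (Et2HOBA) at 0.2 mM for 24 h. Et2HOBA is used in the study to scavenge isolevuglandins, reactive aldehydes that form when lipids are oxidised. The study asked how isolevuglandin formation under high levels of reactive oxygen species bears on immune activation of endothelial cells. The order of the exposures is not given in the labels, and a library with Et2HOBA alone was not analysed here, so an effect of Et2HOBA itself and its effect on the oxidant response cannot be told apart. The treatment labels also give no time from exposure to harvest and no culture time for the other groups. Time in culture and Et2HOBA therefore cannot be told apart either.

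Chemokines are small secreted proteins that bind receptors on leukocytes and guide them to and through the vessel wall. Endothelial cells hold them on heparan sulfate at their surface, where rolling leukocytes meet them and arrest. The CXC chemokines that carry the amino acids Glu-Leu-Arg before the first cysteine, here Cxcl1 and Cxcl2, mainly attract neutrophils, whereas Ccl2 and Ccl7 attract monocytes. Cxcl12 is made constitutively in vessels and marrow, and Cx3cl1 and Cxcl16 are made as membrane-anchored proteins that can also be shed. Many inflammatory chemokine genes are switched on through NF-kappaB, and their transcripts are often short-lived because of AU-rich elements in the 3′ untranslated region.

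Cxcl2 was higher, and Cxcl12 and Ccl20 lower, in the treated libraries, and their promoters are shown for this reason, with that of Cxcl1 as the close relative of Cxcl2 and that of Cxcl10 as an interferon-responsive gene. Cx3cl1 was lower in both treated libraries too, and its promoter is described below but not shown. RefSeq promoter entries on GRCm38.p6 were matched for 6 of the 10 genes; Cxcl16, Ccl2, Ccl5 and Ccl7 had no entry in the table. Each line gives the 250 bases before the RefSeq start, 5′ to 3′ on the strand of the gene. They are Cxcl2 (chr5:90903649-90903898, + strand), Cxcl1 (chr5:90890995-90891244, + strand), Cxcl12 (chr6:117168285-117168534, + strand), Ccl20 (chr1:83116516-83116765, + strand) and Cxcl10 (chr5:92348890-92349139, − strand). Capitals mark matches to the motifs described below, on either strand.
Cxcl2: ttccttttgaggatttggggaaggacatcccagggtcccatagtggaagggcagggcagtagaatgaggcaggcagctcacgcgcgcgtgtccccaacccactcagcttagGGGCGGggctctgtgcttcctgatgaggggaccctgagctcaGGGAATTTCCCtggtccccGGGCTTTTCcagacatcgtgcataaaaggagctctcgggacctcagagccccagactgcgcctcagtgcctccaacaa
Cxcl1: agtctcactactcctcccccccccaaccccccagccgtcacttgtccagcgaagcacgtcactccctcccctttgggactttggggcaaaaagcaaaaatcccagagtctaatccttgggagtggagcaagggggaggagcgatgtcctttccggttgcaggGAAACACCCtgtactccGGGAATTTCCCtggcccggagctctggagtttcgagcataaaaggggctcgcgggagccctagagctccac
Cxcl12: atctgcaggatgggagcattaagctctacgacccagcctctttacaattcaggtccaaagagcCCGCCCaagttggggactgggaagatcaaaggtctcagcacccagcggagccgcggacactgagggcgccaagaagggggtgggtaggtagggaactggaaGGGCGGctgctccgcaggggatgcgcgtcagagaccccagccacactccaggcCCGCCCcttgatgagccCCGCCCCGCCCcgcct
Ccl20: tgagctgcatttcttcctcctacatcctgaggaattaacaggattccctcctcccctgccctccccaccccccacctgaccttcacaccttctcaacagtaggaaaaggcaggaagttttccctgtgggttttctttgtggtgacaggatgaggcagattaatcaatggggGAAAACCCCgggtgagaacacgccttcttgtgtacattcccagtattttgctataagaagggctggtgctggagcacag
Cxcl10: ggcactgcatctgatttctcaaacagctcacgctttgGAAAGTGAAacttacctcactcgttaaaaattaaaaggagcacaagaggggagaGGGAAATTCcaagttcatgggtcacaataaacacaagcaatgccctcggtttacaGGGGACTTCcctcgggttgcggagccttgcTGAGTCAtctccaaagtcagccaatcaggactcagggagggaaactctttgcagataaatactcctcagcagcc

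A total of 6 motifs were searched on both strands in the 250 bases before the start of 32851 genes: GGGNNNTTC for NF-kappaB, TGANTCA for AP-1, TTCNNTTTC for an interferon element, TGATGNAAT for a CEBP-ATF element, TATAAA for a TATA box and GGGCGG for a GC box. The NF-kappaB letters were found in 11.8% of all promoters, and in those of Cxcl1, Cxcl2, Cxcl10 and Ccl20 among the 6 matched chemokine genes. Cxcl1 and Cxcl2 shared the longest run of any pair, the 14 bases GGGAATTTCCCTGG, which begin 71 bases before the start of Cxcl1 and 97 bases before that of Cxcl2. This run holds overlapping matches to the NF-kappaB letters on the + and − strands. Both genes held 1 further match, at 88 bases before the start in Cxcl1 and at 78 bases in Cxcl2. In Cxcl10 matches to the NF-kappaB letters began 159 and 104 bases before the start, with an AP-1 match (6.75% of promoters) at 74 bases and an interferon element match (7.13% of promoters) at 213 bases. The Cxcl12 window held 5 matches to the GC box (32.7% of promoters hold at least 1) and none to the NF-kappaB letters. In Ccl20 the NF-kappaB letters began 79 bases before the start, on the − strand. In Cx3cl1, whose RefSeq start lies downstream of the gene start in the deposited table, a GC box began 27 bases before the start and TATAAA (12.4% of promoters) 6 bases before it. None of the 6 windows matched the CEBP-ATF letters (0.816% of promoters). A match says only that these letters are in the window, and no binding was measured.

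Over the listed genes the libraries held between 35005089 and 40212212 reads. The chemokine genes together had 850.2 RPM (reads scaled to the library total) in control, 519.8 after glucose oxidase and 647.9 after combined treatment. All 10 endothelial markers checked (Pecam1, Cdh5, Kdr, Tek, Tie1, Vwf, Emcn, Erg, Eng and Cldn5) were listed. Since each group is a single library, no difference below has replicates behind it, and conditions could not be tested against each other. Fold values below are ratios of normalized counts (reads divided by a size factor for each library). Each is followed by an exact 95% Clopper-Pearson interval. It holds counting error alone and so concerns this pair of libraries rather than the conditions. Where 3 read numbers stand together, they are for control, glucose oxidase and the combined treatment; a pair of log2 ratios gives the treated libraries in the same order, each against control. Log2 ratios were taken on normalized count plus 10, a scale that pulls low genes towards 0, and a gene was counted as past the limit at 1 log2 unit or more. In bulk RNA, fewer cells of a type and less RNA per cell cannot be told apart.

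Among the 10 chemokine genes, Cxcl2 had the highest ratio to control in both treated libraries, and Cxcl12 had the lowest of those with reads in all 3. Of the 10, 3 passed the limit between glucose oxidase and control, where Cxcl2 was higher and Cxcl12 and Cx3cl1 lower. Of all listed genes 4.07% passed it upward and 8.60% downward. In all, 4 passed it between the combined treatment and control: Cxcl2 higher, and Cxcl12, Cx3cl1 and Ccl20 lower, against 6.66% of all genes higher and 8.04% lower. Between the treated libraries 3 passed it, Cxcl2 higher with Et2HOBA and Cxcl12 and Ccl20 lower, against 6.39% and 2.15% of all genes. On the scale of the authors' deposited tables, recomputed here for this pair of libraries, the log2 differences of Cxcl12 (−0.65) and Ccl20 (−0.20) stayed short of the limit and only Cxcl2 (1.08) passed it. On that scale few genes pass at all, 36 higher and 7 lower of the 18287. Among the 6 chemokine genes with 100 or more reads in at least 1 library (Cxcl1, Cxcl2, Cxcl12, Cx3cl1, Ccl2 and Ccl7), 3 passed the limit in each comparison with control and 2 between the treated libraries. Of the 11839 genes read that deeply, 11.3% passed it in either direction after glucose oxidase, 15.9% after combined treatment and 6.07% between the treated libraries. The median log2 ratio of the 10 genes was −0.49 after glucose oxidase and −0.18 after combined treatment, beside medians of −0.01 and −0.00 over all genes. Between the treated libraries it was 0.04, beside 0 over all genes. With Ccl20 placed at the bound that its 0 reads allow, the median after combined treatment stays the same. Both comparisons share the control library.

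**Figure D1:**
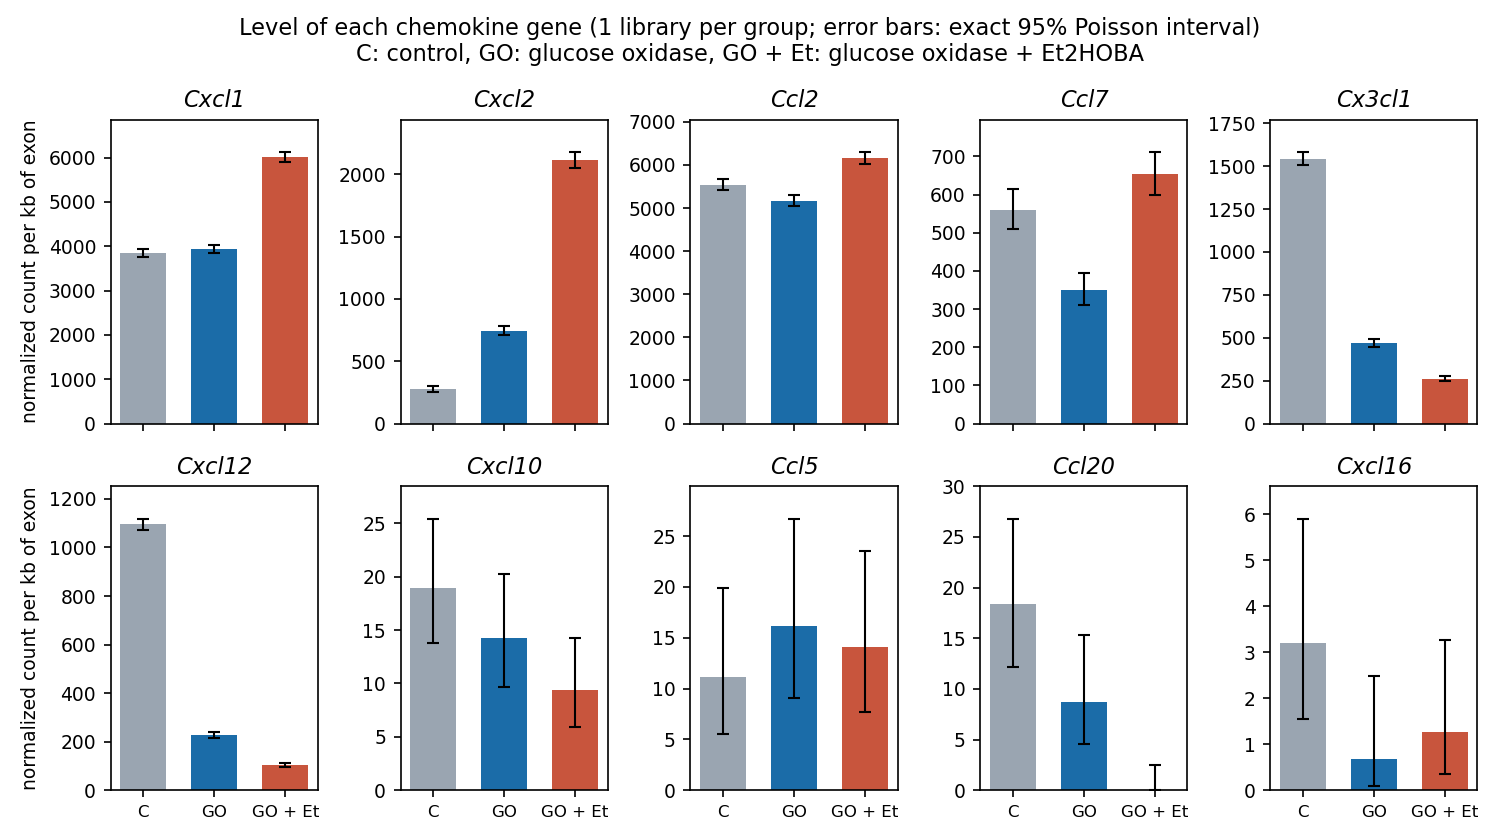
Level of each of the 10 chemokine genes, as normalized count per kb of exon, in control (C), glucose oxidase (GO) and the combined treatment (GO + Et), 1 library each; error bars are exact 95% Poisson intervals and each panel has its own axis from 0. Cxcl2 goes from 276 to 2115 while Cxcl12 goes from 1095 to 103.5 and Cx3cl1 from 1543 to 261.4; the intervals of Ccl5, Cxcl10 and Cxcl16 overlap across all 3 libraries.

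Cxcl2 (ENSMUSG00000058427.10, GRCm38 chromosome 5, 90903871 to 90905938, + strand) is a main neutrophil chemoattractant, read by the receptor Cxcr2. Control held 589 of its reads, the glucose oxidase library 1485, and the combined treatment 4543. The counts lay in separate ranges, lowest in control and highest with Et2HOBA. Its normalized count was 2.70-fold that of control after glucose oxidase (95% interval 2.45 to 2.97, log2 ratio 1.41) and 7.66-fold after combined treatment (7.03 to 8.36, log2 ratio 2.92). Between the treated libraries the ratio was 2.84 (2.68 to 3.02, log2 ratio 1.50). Of the 18287 genes, 346 had a log2 ratio at least as high after glucose oxidase and 92 after combined treatment. In the authors' deposited tables, on their own scale, the log2 differences of Cxcl2 were 1.19 and 2.80. Of the 2017 stretches of 50 bases in its longest transcript, 5.35% also occur in Cxcl3, a close relative that is not listed. That transcript covers nearly the whole gene, introns included, so the share in spliced transcript may be larger. How such reads were assigned is not given in the sources used here.

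Cxcl1 (ENSMUSG00000029380.11, chromosome 5, 90891241 to 90893115, + strand) lies beside Cxcl2 and acts on the same receptor. Its reads were 7425 in control, 7121 after glucose oxidase and 11706 after combined treatment. Control and glucose oxidase could not be told apart (ratio 1.03, 0.992 to 1.06; the log2 ratio was 0.04, and −0.02 when libraries were scaled by total count), and the library with Et2HOBA stood above both. The ratio was 1.57 against control (1.52 to 1.61, log2 ratio 0.65) and 1.53 against glucose oxidase (1.48 to 1.57, log2 ratio 0.61), both under the limit. The neighbours therefore had unequal ratios. Reads of Cxcl2 came to 7.93% of those of Cxcl1 in control (7.28 to 8.63), 20.9% after glucose oxidase (19.7 to 22.1) and 38.8% after combined treatment (37.5 to 40.2).

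**Figure D2:**
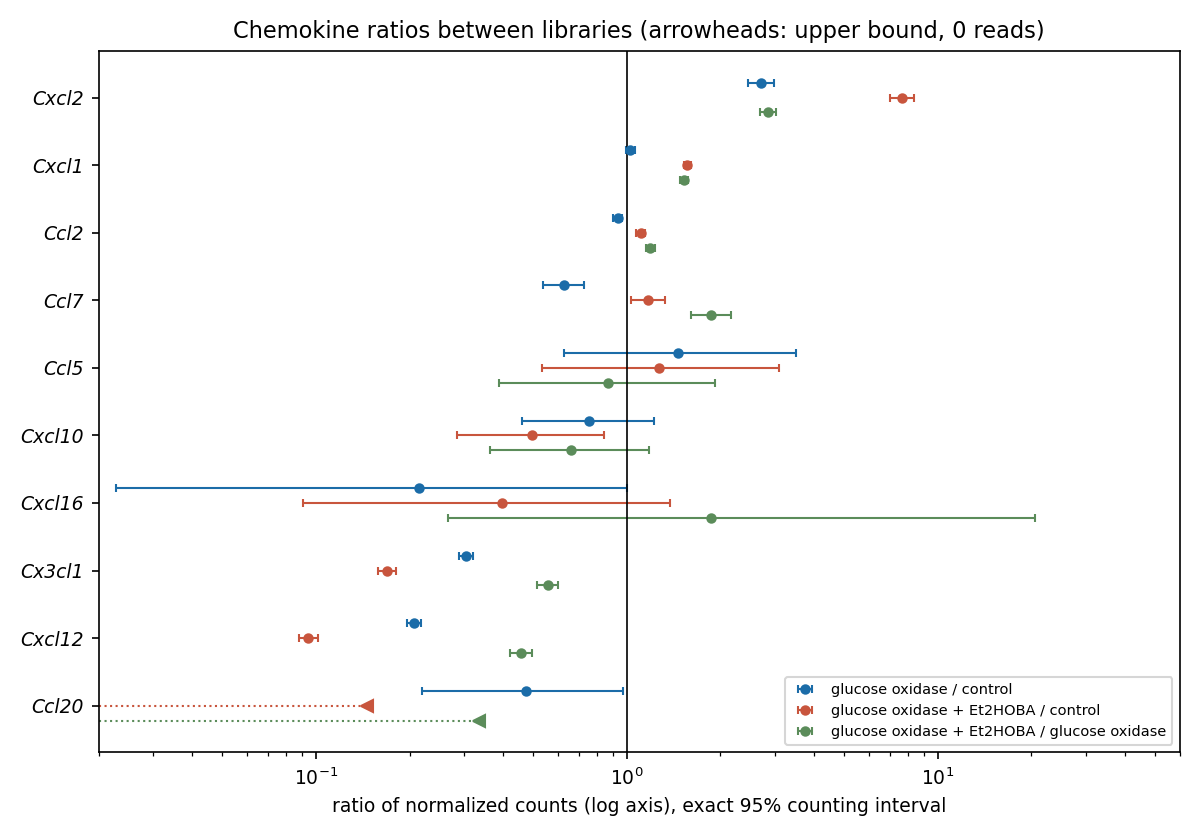
Ratio of normalized counts for each chemokine gene on a log axis, for glucose oxidase over control, the combined treatment over control, and the treated libraries over each other; bars are exact 95% counting intervals, and arrowheads mark upper bounds where Ccl20 had 0 reads. Only Cxcl2 lies at 2.70 or more in all 3, while Cxcl12, Cx3cl1 and Ccl20 lie wholly left of 1 in all 3.

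Ccl2 (ENSMUSG00000035385.5, chromosome 11, 82035571 to 82037453, + strand), the ligand of Ccr2 on classical monocytes, had 6512 control reads, 5685 after glucose oxidase and 7274 after combined treatment. Library by library these counts were close. The ratio was 0.933 after glucose oxidase (0.900 to 0.967), 1.11 after combined treatment (1.07 to 1.15) and 1.19 between the treated libraries (1.15 to 1.23), none near the limit. Scaled by total count, the second of these had a log2 ratio of −0.00 in place of 0.15, so the direction of Ccl2 in that comparison depended on the scaling. Ccl7 (ENSMUSG00000035373.2, chromosome 11, 82045712 to 82047525, + strand), another monocyte ligand of the same cluster, had 463, 271 and 544 reads. It was lowest after glucose oxidase, at 1.60-fold below control (1.37 to 1.86, log2 ratio −0.66). With Et2HOBA it lay at 1.17 times control (1.03 to 1.32) and 1.87 times glucose oxidase (1.61 to 2.17, log2 ratio 0.88), which is short of the limit. As a share of Ccl2 reads, Ccl7 came to 7.11% in control (6.46 to 7.81), 4.77% after glucose oxidase (4.20 to 5.39) and 7.48% with Et2HOBA (6.84 to 8.16), so that the glucose oxidase library stood apart from the other two. Ccl2 overlaps Gm17268 on the opposite strand. The library kit keeps strand, but whether the counting used it is not given in the sources used here.

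Cxcl12 (ENSMUSG00000061353.11, chromosome 6, 117168535 to 117181367, + strand), the constitutive ligand of Cxcr4 and of the scavenging receptor Ackr3, had more control reads than any other of the 10. There were 9243 reads in control, 1791 after glucose oxidase and 879 after combined treatment. Each treated library was far below control, and the one with Et2HOBA was the lowest. The gene was 4.83-fold lower after glucose oxidase (4.59 to 5.08, log2 ratio −2.27) and 10.6-fold lower after combined treatment (9.87 to 11.4, log2 ratio −3.39). The difference between the treated libraries was 2.19-fold (2.02 to 2.38, log2 ratio −1.12). Only 42 of the 18287 genes were as low or lower in the library with Et2HOBA, and 245 after glucose oxidase. The authors' deposited tables give −2.15 and −3.31. Set against Cxcl2, reads of which came to 6.37% of Cxcl12 reads in control, the proportion was 82.9% after glucose oxidase and 517% after combined treatment.

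Cx3cl1 (ENSMUSG00000031778.13, chromosome 8, 94772009 to 94782427, + strand) encodes fractalkine, which stands on a mucin-like stalk and both tethers and attracts cells bearing Cx3cr1. Its reads were 6258 in control, 1783 after glucose oxidase and 1067 after combined treatment, in the same order as Cxcl12. It was 3.28-fold lower after glucose oxidase (3.11 to 3.46, log2 ratio −1.71) and 5.90-fold lower after combined treatment (5.53 to 6.30, log2 ratio −2.55). Between the treated libraries it was 1.80-fold lower with Et2HOBA (1.67 to 1.94), with a log2 ratio of −0.84 that did not reach the limit. At or below these log2 ratios were 590 genes after glucose oxidase and 184 after combined treatment. Cxcl16 (ENSMUSG00000018920.11, chromosome 11, 70453983 to 70459984, − strand), the other membrane-anchored ligand, had 10, 2 and 4 reads. Its ratio to control was 0.214 after glucose oxidase, with an interval of 0.0228 to 1.003, and 0.397 after combined treatment (0.0910 to 1.38), so no difference could be detected at this depth. It overlaps Zmynd15 on the opposite strand.

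Most of the endothelial markers checked were below control in the treated libraries. Summed over the 10 endothelial markers, the level in RPM was 10010 in control, 6130 after glucose oxidase and 5215 after combined treatment. Past the limit downward were 3 of 10 after glucose oxidase and 5 of 10 with Et2HOBA, beside 8.60% and 8.04% of all genes. None of the 10 passed it upward, beside 4.07% and 6.66% of all genes. The members went both ways: Emcn had log2 ratios of 0.33 and 0.55 and Cdh5 of −0.20 and 0.19, while Tek had −1.14 and −2.01 and Vwf −1.02 and −1.90. Among leukocyte markers 6 of 10 were listed, summing to 245.8, 527.4 and 742.4 RPM, most of it Cd68, a lysosomal protein, at 8215, 17067 and 27799 reads. In each comparison with control 3 of these 6 passed the limit upward and 1 downward: Cd68 (1.15 and 1.75), Itgax with 372, 1163 and 1684 reads (1.71 and 2.14) and Cd14 with 55, 136 and 272 reads (1.25 and 2.10) were higher, and Lyz2 with 186, 76 and 86 reads (−1.10 and −1.04) was lower. The leukocyte markers Ptprc, Adgre1, Itgam and Cd3e were not listed, Csf1r had 6, 12 and 10 reads, and Cd79a had 6, 9 and 2. Mural and fibroblast markers, of which 6 of 10 were listed, summed to 5.34, 41.7 and 74.7 RPM, most of it Pdgfra after treatment, at 107, 1325 and 2821 reads (3.60 and 4.58). Of these 6, 1 passed the limit upward after glucose oxidase and 3 with Et2HOBA, the others being Myh11 with 19, 35 and 73 reads (0.70 and 1.50) and Pdgfrb with 21, 43 and 71 reads (0.85 and 1.37). Of 5 epithelial markers 1 was listed, Krt19, at 1.53, 1.09 and 1.67 RPM. The part of other cells or of endothelial identity in the chemokine values was not tested.

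Cxcl10 (ENSMUSG00000034855.13, chromosome 5, 92346638 to 92348889, − strand) is induced by interferons and attracts T cells through Cxcr3. Only 44 reads were counted in control, 31 after glucose oxidase and 22 after combined treatment. The ratio to control after glucose oxidase was 0.753, with an interval of 0.460 to 1.22 that holds equality. After the combined treatment it was 2.01-fold lower, the ratio being 0.497 (0.284 to 0.847, log2 ratio −0.76). The gene overlaps Art3 on the opposite strand. Ccl5 (ENSMUSG00000035042.2, chromosome 11, 83525778 to 83530518, − strand), which attracts T cells and monocytes through receptors such as Ccr1 and Ccr3, had 11, 15 and 14 reads, and its ratios of 1.46 (0.626 to 3.51) and 1.26 (0.533 to 3.08) to control show no detectable difference at this depth.

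Ccl20 (ENSMUSG00000026166.14, chromosome 1, 83116766 to 83119167, + strand), the ligand of Ccr6 on dendritic cells and some T cells, was counted 27 times in control, 12 times after glucose oxidase and 0 times after combined treatment. After glucose oxidase it was 2.10-fold lower than in control (1.03 to 4.56), with a log2 ratio of −0.69 short of the limit. Taking 3 reads as the limit that a count of 0 allows in that library, it was at least 9.06-fold lower with Et2HOBA than in control and at least 4.30-fold lower than after glucose oxidase. These bounds leave out the counting error of the 27 and 12 reads; with it, the exact intervals on the ratio reach up to 0.145 and 0.335. The promoter windows of Ccl20, Cxcl10, Cxcl1 and Cxcl2 all hold the NF-kappaB letters. Ccl20 and Cxcl10, both with few reads, had their lowest counts in the library with Et2HOBA, and Cxcl1 and Cxcl2 their highest. For Cxcl10 the ratio between the treated libraries was 0.660 (0.364 to 1.18), an interval that holds equality. A part of NF-kappaB in these values was not tested.

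Per kb of exon, summed over all transcripts of a gene, Ccl2 (5545 normalized counts per kb) and Cxcl1 (3837) led in control. They were followed by Cx3cl1 (1543), Cxcl12 (1095), Ccl7 (560.1) and Cxcl2 (276), whose intervals were all apart. Cxcl10 (18.9), Ccl20 (18.4), Ccl5 (11.1) and Cxcl16 (3.21) came last, and within these 4 the intervals of neighbours overlapped. After glucose oxidase Cxcl2 (743.8) stood next behind Ccl2 (5175) and Cxcl1 (3934), above Cx3cl1 (470.0), Ccl7 (350.5) and Cxcl12 (226.9). With Et2HOBA, Ccl2 (6154) and Cxcl1 (6011) had overlapping intervals at the top, Cxcl2 (2115) came next, and Ccl7 (653.9) passed Cx3cl1 (261.4) and Cxcl12 (103.5). Cxcl10, Ccl5, Ccl20 and Cxcl16 were the lowest 4 in both treated libraries too. A gene whose long untranslated exons are used only in part, as may hold for Cxcl12 with its 8176 bases of exon, has its level per kb understated. For Cxcl1 (1875 bases), Cxcl2 (2068) and Cxcl10 (2252) the summed exons equal the whole gene span, introns included. Their levels per kb may thus be understated too. The place of Ccl2, with 1138 bases of exon, above Cxcl1 depends on these lengths, since Cxcl1 had more reads in control (7425 against 6512).

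The mix of chemokine transcripts differed between the libraries. Shares within a library rest on the exon lengths above, which may understate Cxcl1 and Cxcl2. Cxcl1 and Cxcl2 together made up 31.9% of the 10 genes' summed level per kb in control, 42.8% after glucose oxidase and 53.0% after combined treatment. Cxcl2 alone went from 2.14% to 6.80% and 13.8%. The CC ligands held 47.5%, 50.7% and 44.5%. The membrane-anchored pair dropped from 12.0% in control to 4.30% and 1.71%, and Cxcl12 from 8.49% to 2.07% and 0.675%.

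**Figure D3:**
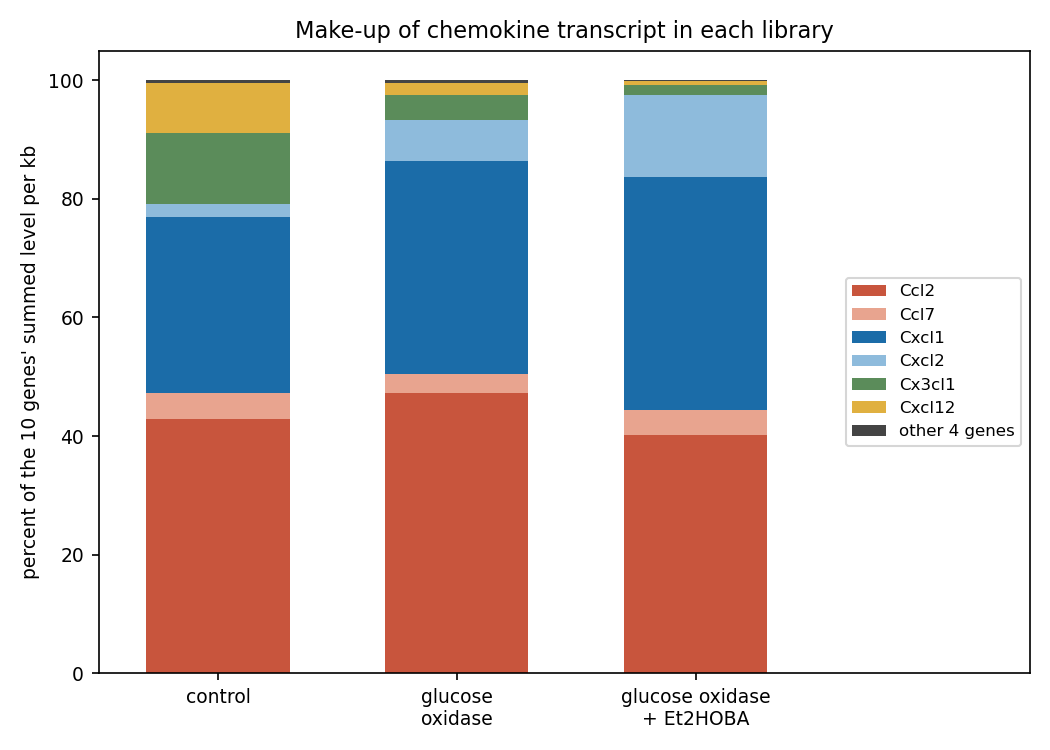
Share of each chemokine gene in the summed level per kb of exon of the 10 genes, as percent, in the 3 libraries (1 library per group, no error bars). Ccl2 and Cxcl1 fill most of each bar; Cxcl2 widens from 2.14% to 13.8% and Cxcl12 narrows from 8.49% to 0.675%.

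Transcript features were read from GENCODE M21 for all 10 genes. The pentamer ATTTA, the core of AU-rich elements that mark short-lived transcripts, occurred 11 times in the 3′ untranslated region of Cxcl2, or 15.0 per kb, and only 0.322% of 13052 protein-coding genes had as many per kb. Cxcl1 had 7 (11.8 per kb, 0.667% of genes) and Ccl20 had 5 (11.1 per kb, 0.804%). Ccl7 had 4.60 per kb, Ccl2 3.64 and Cxcl10 2.74. Cxcl16 had 1.41, Cxcl12 1.08 and Cx3cl1 0.535, around or below the median gene at 1.20 per kb, and Ccl5 had none. The longer TATTTAT occurred 7 times in Cxcl2, 6 times in Cxcl1 and 1 time each in Ccl20 and Cx3cl1, thus in 4 of 10, beside 27.6% of genes.

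Among the receptors these chemokines signal through, those given here were scarcely read: Cxcr2 had 4, 5 and 11 reads, Cxcr3 11, 8 and 12, Cxcr6 5, 2 and 0, and Ccr1 0, 7 and 14. Cxcr4, Cx3cr1, Ccr2, Ccr3 and Ccr6 were not listed. Ackr3, which takes up and removes Cxcl12 without classical signalling, was abundant, with 1462 control reads, 2416 after glucose oxidase and 3892 with Et2HOBA. It was 1.77-fold control after glucose oxidase (1.66 to 1.89) and 2.65-fold with Et2HOBA (2.49 to 2.81, log2 ratio 1.40), in the order opposite to that of its ligand. Ccrl2, the other atypical receptor listed of 5, went the other way, with 2308, 870 and 714 reads and log2 ratios of −1.30 and −1.69 against control. Of all listed genes, 4.07% passed the limit upward and 8.60% downward after glucose oxidase, and 6.66% and 8.04% with Et2HOBA. Over the 8 listed of 18 signalling receptors, 1 passed the limit upward after glucose oxidase, and 3 upward and 1 downward with Et2HOBA. Of these, 2 had 100 reads in a library: Ccr7, a homing receptor for lymph nodes, with 35, 76 and 104 reads (log2 ratios 1.01 and 1.33), and Ccr10, with 104, 73 and 46 reads (−0.37 and −1.03).

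Other chemokine ligands were mostly scarce. Of 27 further ligands 9 were listed. After glucose oxidase none passed the limit upward and 4 downward (median log2 ratio −0.67), beside 4.07% and 8.60% of all genes. With Et2HOBA 1 passed upward and 3 downward (median −0.91), beside 6.66% and 8.04% of all genes. Ccl6, the only one of them past the limit with 100 reads in a library, had 188 control reads, 80 after glucose oxidase and 30 with Et2HOBA (log2 ratios −1.05 and −2.31).

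Genes for cutting and displaying chemokines at the cell surface changed little as a list: of 20 listed of 22, none passed upward and 1 downward after glucose oxidase, 2 upward and 1 downward with Et2HOBA, and the medians were −0.11 and −0.12. Among all genes 4.07% passed upward and 8.60% downward after glucose oxidase, and 6.66% and 8.04% with Et2HOBA. The sheddases that release Cx3cl1 and Cxcl16 had log2 ratios near 0: Adam10 −0.23 and −0.08, and Adam17 −0.21 and −0.16. Hs3st1, which adds a rare sulfate to heparan sulfate, was the gene past the limit downward, with 486, 117 and 30 reads and log2 ratios of −1.87 and −3.63. Ext1, which polymerises the heparan sulfate chain, had 1719, 2242 and 3633 reads (0.48 and 1.07), and Glce, its epimerase, had 1346, 2161 and 2831 reads (0.77 and 1.06).

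In the list of NF-kappaB and mRNA decay regulators, 18 of 19 were listed, with none past the limit upward and 2 downward after glucose oxidase, and 1 upward and 2 downward with Et2HOBA. The medians were −0.03 and 0.08. Over all genes the shares past the limit were 4.07% upward and 8.60% downward after glucose oxidase, and 6.66% and 8.04% with Et2HOBA. Nfkbie, an inhibitor of NF-kappaB, had 671, 294 and 226 reads (−1.07 and −1.54). Zfp36l1, which binds AU-rich elements and hastens decay, had 5982, 2765 and 2097 reads (−1.01 and −1.52). Ikbkg, the regulatory subunit of the IkappaB kinase, had 2278, 4092 and 4757 reads (0.94 and 1.05). It overlaps G6pdx on the opposite strand, and whether the counting used strand is not given. Nfkbia and Tnfaip3, which are themselves NF-kappaB targets, were named after their values were seen. Nfkbia had 6622, 4712 and 4049 reads (−0.39 and −0.72) and Tnfaip3 698, 684 and 1319 reads (0.07 and 0.90), all under the limit. The activity of NF-kappaB was not tested.

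Interferon-side regulators, all 18 listed, had 1 past the limit upward and 1 downward after glucose oxidase, and 1 upward and 5 downward with Et2HOBA (medians −0.19 and −0.27). The shares of all genes were 4.07% upward and 8.60% downward after glucose oxidase, and 6.66% and 8.04% with Et2HOBA. Among the regulators lower with Et2HOBA were Usp18 (1276, 514 and 274 reads, log2 ratio −2.19), Irf7 (1250, 624 and 360, −1.78), Irf1 (1145, 845 and 452, −1.33) and Irf9 (1505, 920 and 717, −1.07). These carry the interferon signal to genes such as Cxcl10, or, for Usp18, restrain it. Irf9 overlaps Rnf31 on the same strand, and Irf7, Irf1 and Usp18 overlap Phrf1, Gm17334 and Gm44148 on the opposite strand. How reads in such overlaps were assigned is not given in the sources used here. Socs3, a feedback inhibitor of cytokine receptors, was higher in both treated libraries, with 194, 437 and 450 reads (1.22 and 1.16).

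**Figure D4:**
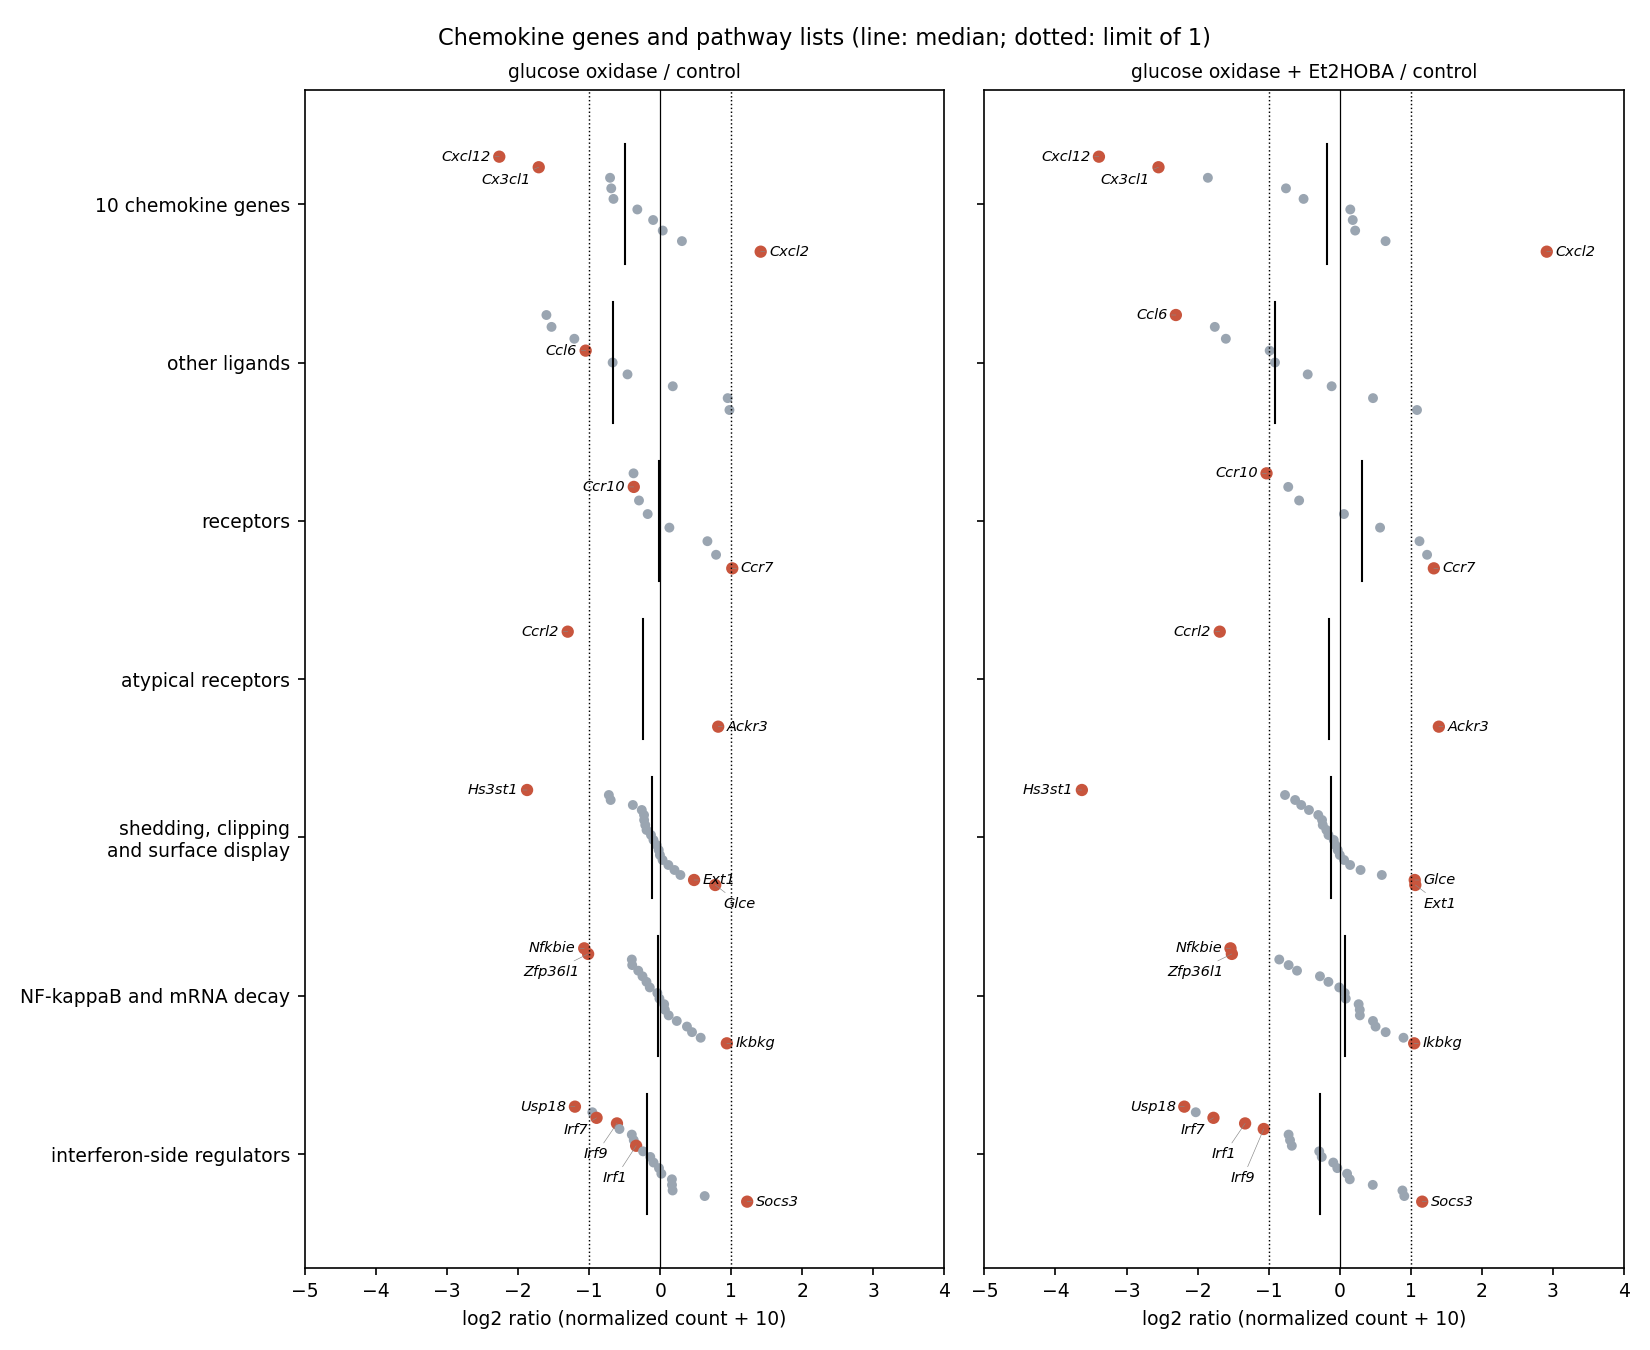
Log2 ratio to control (normalized count plus 10) of each listed gene in the chemokine set and 6 pathway lists, for glucose oxidase (left) and the combined treatment (right); short lines are list medians, dotted lines the limit of 1, and labelled red points genes named in the text with 100 or more reads in a library that pass it in either comparison. Cxcl12 at −3.39 and Hs3st1 at −3.63 are the lowest points on the right, and Cxcl2 at 2.92 the highest.

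The neighbourhood of the Cxcl1 and Cxcl2 cluster was also described. With Cxcl2 itself included, 16 listed genes have starts within 500 kb of that of Cxcl2. Of these, 4 passed the limit upward and 1 downward after glucose oxidase, beside 4.07% and 8.60% of all genes. With Et2HOBA 6 passed upward and none downward, beside 6.66% and 8.04% of all genes. Cxcl2, on which the window was centred, is counted among the upward genes in both. Afp, the fetal serum protein of the same region, had the highest log2 ratio of the 16 after glucose oxidase, with 33, 158 and 148 reads (2.05 and 1.86). Pf4, a platelet chemokine of the cluster, went the other way from Cxcl2, with 290, 167 and 211 reads (log2 ratios −0.67 and −0.45). Next to Cxcl2, Mthfd2l had 1101, 999 and 859 reads (−0.04 and −0.36). Further along lie the genes of 4 ligands of the epidermal growth factor receptor family: Epgn with 11, 30 and 73 reads (0.99 and 1.96), Ereg with 229, 348 and 593 (0.68 and 1.32), Areg with 21, 82 and 179 (1.65 and 2.59) and Btc with 120, 477 and 683 (2.00 and 2.40). All 4 were highest in the library with Et2HOBA, as Cxcl2 was. These neighbours were named after their values were seen. Around Ccl2, only Ccl2, Ccl7 and Ccl12 were listed within 500 kb, and Ccl12 had 21 reads in control and 0 in each treated library.

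**Figure D5:**
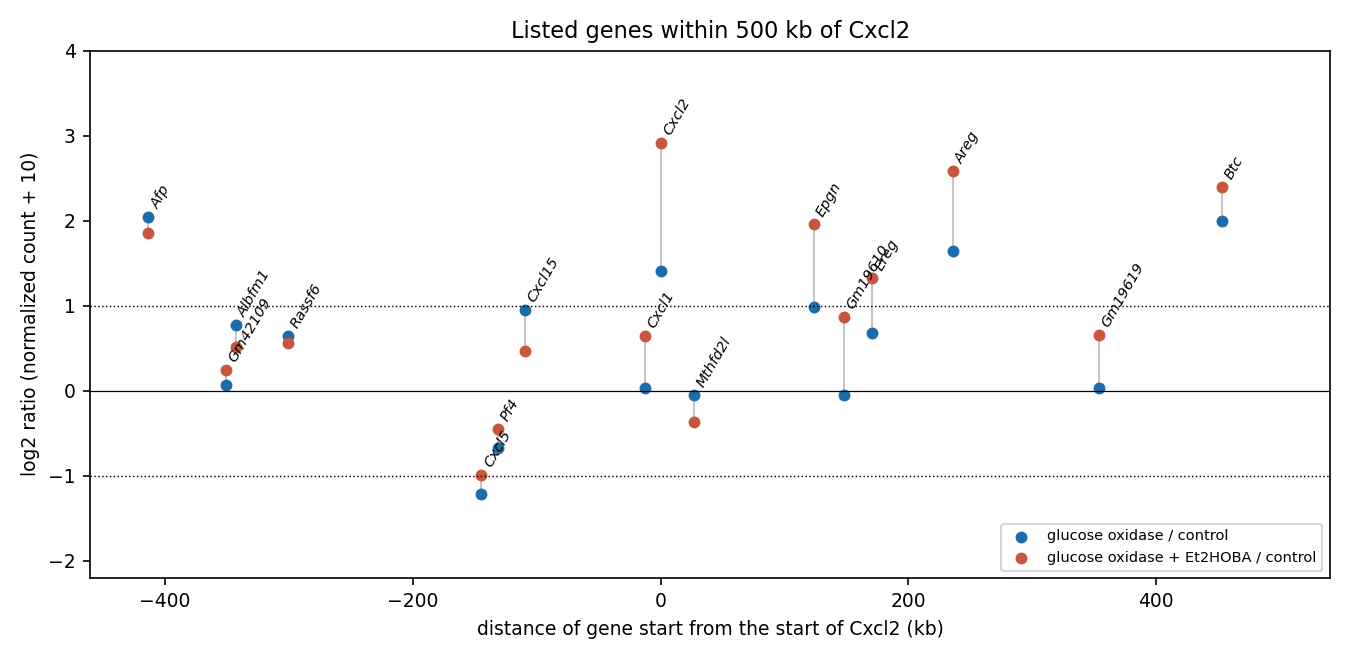
Log2 ratio to control of the 16 listed genes within 500 kb of Cxcl2, by distance of the gene start from that of Cxcl2 in kb; blue points are glucose oxidase, red points the combined treatment, and grey lines join the values of a gene. Cxcl2 at 2.92, Areg at 2.59 and Btc at 2.40 are the highest red points, while Cxcl5, Pf4 and Mthfd2l lie below 0.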

How the data were processed

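Polyadenylated RNA was taken with the RNeasy mini plus kit (Qiagen) and made into stranded libraries (NEB), per the labels' protocols. STAR, featureCounts and mm10 are named in the submitters' processing notes; versions and the annotation release are not given in the sources used here. The deposited tables held raw read counts per gene for control and glucose oxidase plus Et2HOBA, with log-normalized values and a log2 difference, per the file headers. For glucose oxidase against control only a log2 difference was deposited, and for the treated libraries against each other a log2 difference for 7 genes. Glucose oxidase counts were therefore recovered from these log2 values and the control counts. The deposited transformation, asinh of the root of the count times a constant for each library, was inverted. For 100% of 18275 genes matched by symbol the result lay within 0.01 of a whole read, at a largest distance of 0.000138, and 3.31% did so when control counts were raised by 1 read. Whole reads also placed 12 more genes. In 19 cases the listed symbol was a date. The step was tested on simulated counts. The deposited scale for glucose oxidase plus Et2HOBA against control acts like a pseudocount of 71.1 and differs between tables, so it was not used across them.

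Size factors by the median of ratios, from all 3 libraries, were 1.03 (control), 0.965 (glucose oxidase) and 1.04 (with Et2HOBA). Counts were divided by them, and log2 ratios were taken after adding 10. No count model was fitted, since 1 library per group gives no spread, and all p-values across genes were left out. The alternatives were a pseudocount of 1, total-count scaling, the deposited scale, genes with a mean normalized count of 10 or more, size factors from protein-coding genes, and limits of 0.5 and 2. Gene positions are those of the deposited table; all 17878 genes whose versioned ID is in GENCODE M21 lie at identical coordinates, which makes the build GRCm38. Exon lengths, 3′ untranslated regions and shared 50-base stretches were read from that release and promoters from RefSeq. Besides the 10 chemokine genes, the rule for named genes took from each pathway list those with 100 or more reads in a library and an absolute log2 ratio of 1 or more against control, at most 6 per list, and the listed receptors of the 10. Other genes were named after their values were seen. A few genes that the rule takes are not reported here. The chemokine genes, the lists, the limit and the rule were chosen with earlier results of these data known. Python 3.11.15, numpy 2.4.6, pandas 2.3.3, scipy 1.17.1 and matplotlib 3.10.9 were used.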

Additional observations from a re-analysis of the deposited data

How the results depend on the processing

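No paired analysis was possible because each group had 1 library, and for the same reason no replicate could be left out. Of the 10 chemokine genes, 3 passed the limit between glucose oxidase and control; this became 5 with a pseudocount of 1 (Cxcl16 at −1.80 and Ccl20 at −1.02 were added), 6 with the limit at 0.5 and 1 with it at 2. Between glucose oxidase plus Et2HOBA and control the count of 4 became 7 with the limit at 0.5, and with a pseudocount of 1 Cxcl16 passed at −1.14. Between the treated libraries the count of 3 became 1 on the scale of the authors' deposited tables (Cxcl12 at −0.65 and Ccl20 at −0.20 no longer passed), 6 with the limit at 0.5 and 0 with it at 2. In all, 147 log2 ratios of the 10 genes were recomputed under the planned changes of pseudocount, scaling, scale, filter and size factors. Of these, 5 crossed the limit, all named above, and 3 changed sign, all close to 0: Cxcl1 after glucose oxidase, at −0.02 with total-count scaling and −0.00 with size factors from protein-coding genes, and Ccl2 with Et2HOBA, at −0.00 with total-count scaling. The median of the 10 genes with Et2HOBA against control went from −0.18 to 0.14 under the filter that keeps mean normalized counts of at least 10, which removed Cxcl16. Between the treated libraries it went from 0.04 to −0.01 with total-count scaling and −0.12 with that filter.

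Total-count scaling placed the median of all genes at −0.06, −0.13 and −0.08 in the 3 comparisons. It moved the split over all genes with Et2HOBA against control from 1217 higher and 1471 lower to 988 and 1837. A pseudocount of 1 moved the split between the treated libraries from 1169 higher and 394 lower to 1993 and 1318. The scale of the authors' deposited tables lowered the counts most, to 36 higher and 7 lower between the treated libraries and, for glucose oxidase against control, from 745 higher and 1572 lower to 276 and 458. For glucose oxidase plus Et2HOBA against control it gave 822 and 946. Depth limits Cxcl10, Cxcl16, Ccl5 and Ccl20, with at most 44 reads in a library.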
